A study of Mus musculus with 5 samples.

Results

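The miR-200 family was followed through 4 of the 171 microRNA probes of a mouse T cell activation series, the probes 1org-200a, 1org-200b, 2org-200c and 1org-141. They were taken by probe ID, and the family was chosen with earlier results of these data known. On 5 arrays of 2 channels, total RNA of activated CD4+25- T cells was set against RNA of CD4+25- T cells that had not been activated, called naive here after the title of the series. CD4+25- cells are helper T cells without the CD25-positive population, which is rich in regulatory T cells. The activated cells came from overnight activation (1 array, activated RNA in Cy5), from day 3 (2 arrays of opposite dye) and from day 10 (2 arrays of opposite dye). The labels and the design text give neither the strain nor the stimulus or culture, and they leave unsaid whether the arrays of a pair held the same RNA extracts.

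The miR-200 family is known from epithelial cells, where its members repress Zeb1 and Zeb2, transcription factors that silence the E-cadherin gene. High family levels go with the epithelial state and low levels with the mesenchymal one. The family falls into 2 groups by its seed, the stretch at the 5′ end that pairs with target transcripts, and into 2 gene clusters on different chromosomes.

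The probe annotation used here names none of the 4 probes, so they were tied to microRNAs by the number and letter in their IDs, and all 4 had an entry in RefSeq (GRCm38.p6). The IDs name no arm. The 3p arm, the one the plain names stood for, is shown here 5′ to 3′ with the seed (bases 2 to 8) in capitals, because the members are so close in sequence that their values on the arrays can be read against it. The sequences of the spotted probes were not used here.
miR-200a-3p: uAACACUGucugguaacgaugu
miR-141-3p: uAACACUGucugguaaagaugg
miR-200b-3p: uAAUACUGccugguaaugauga
miR-200c-3p: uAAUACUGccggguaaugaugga
The upper pair shares the seed AACACUG and the lower pair AAUACUG. Counted from 1 at the 5′ end with miR-200a as reference, miR-141 differs by C17A and U22G, so that 20 of 22 bases are the same. With miR-200b as reference, miR-200c differs by U11G and A22G and is 1 base longer. None of the other probes that could be matched to a mature sequence shares a seed with a member.

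Seed and gene position group the members differently. Mir200b (chr4:156055681-156055750) and Mir200a (chr4:156054896-156054985) lie 695 bases apart on the minus strand, within the long noncoding gene Gm13648. Mir200c (chr6:124718322-124718390) and Mir141 (chr6:124717914-124717985) lie 336 bases apart on the minus strand of chromosome 6, outside any other annotated gene and nearest to the coding gene Phb2. MiR-141 is therefore the neighbour of miR-200c by gene and the closest relative of miR-200a by sequence. No probe in the table carries the number of miR-429, the remaining family member.

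The deposited values are 1 log ratio per probe and array, read here as log2. Swapping the dyes turned the deposited values over at both times (across 171 probes, r = -0.66 between the day 3 arrays and -0.43 between the day 10 arrays), so they keep 1 dye direction. Cy5 over Cy3 is the likely direction, not a stated one. It puts probe 1org-155, numbered as miR-155 that T cell activation is known to induce, at 4.88 at day 3, and probe 1org-150, numbered as miR-150 of resting lymphocytes, at -5.24. If Cy3 was the numerator, every sign below turns, for activation and for dye. The array medians ran from -1.75 to 0.38 as deposited, so the arrays were not centred. As ratios these values do not show whether a microRNA was present, and no detection call was used. The small number of arrays limits the precision.

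For 3 of the 4 probes the ratio followed the dye and not the RNA. Probe 1org-200a stood at 3.29 with day 3 activated RNA in Cy5 and at 2.46 with the same kind of RNA in Cy3, then at 2.00 and 3.45 on the day 10 arrays in the same order. Probe 1org-200b, numbered as the member with the other seed from the same cluster, stood at 3.67 and 2.31 at day 3 and at 3.26 and 4.19 at day 10. Probe 2org-200c stood at 3.31 and 2.06 at day 3 and at 1.34 and 2.75 at day 10. All 4 arrays were above 0 for each of these probes, although the swap puts the activated RNA in the opposite channel. A probe that reported only activation would change sign. Probe 1org-141 did change sign within each pair, at 0.05 and -1.34 at day 3 and at -0.33 and 1.01 at day 10.

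Such values were rare on these arrays. Above 0 on all 4 dye-swapped arrays were 6 of 171 probes (3.51%), of which 3 were the family probes and the others, chosen after the values were known, 1org-206, 1org-99b and 2org-224. At least 1 on all 4 arrays were 4 probes, the 3 family probes and 1org-99b. On the day 10 array whose activated RNA was in Cy3, 1org-200b had the highest value of all 171 probes, 1org-200a the third and 2org-200c the fifth, while 1org-141 was in position 37. On the other 3 dye-swapped arrays 1org-200b was in positions 4 to 10, 1org-200a in positions 9 to 15, 2org-200c in positions 13 to 16 and 1org-141 in positions 77 to 97.

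**Figure D1:**
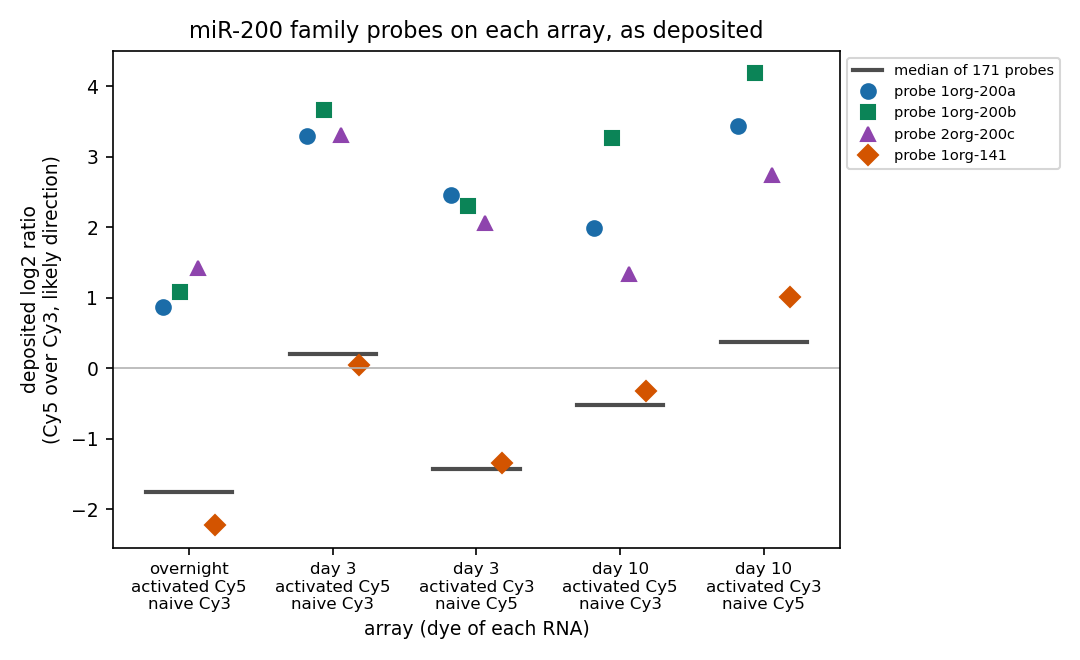
Deposited log2 ratios (Cy5 over Cy3, likely direction) of the 4 miR-200 family probes on the 5 arrays; symbols are single probes and the dark bar is the median of 171 microRNA probes on that array. The 1org-200a, 1org-200b and 2org-200c symbols lie above 0 and above the bar on all 5 arrays, and 1org-141 lies near the bar on each.

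The 2 values of a pair were split into an activation part, their difference (activated in Cy5 minus activated in Cy3) divided by 2, and a dye part, their mean. The dye part also holds any offset of the arrays, as the median over all probes shows (-0.44 at day 3 and 0.02 at day 10). Probe 1org-200b had a dye part of 2.99 at day 3 and 3.72 at day 10. Probe 1org-200a had 2.87 and 2.72 at the same times. Probe 2org-200c had 2.69 and 2.05. These positions were the second, the third and the fourth of 171 at day 3 and the first, the third and the fourth at day 10. Probe 1org-141 had -0.65 at day 3 and 0.34 at day 10, on either side of 0. With the median of every array set to 0 these became -0.04 and 0.41, while those of the other 3 probes were at least 3.30 at day 3 and at least 2.11 at day 10.

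Averaged over both pairs, the dye effect was 3.36 for 1org-200b (95% interval 2.73 to 3.98), 2.80 for 1org-200a (2.17 to 3.42), 2.37 for 2org-200c (1.74 to 2.99) and -0.15 for 1org-141 (-0.78 to 0.47), against a median of -0.22 over all probes. In linear terms the likely Cy5 channel exceeded the Cy3 channel 10.2-fold, 6.95-fold and 5.15-fold for the 3 probes numbered 200b, 200a and 200c. The first of these was the highest dye effect on the arrays, and the other two ranked the second and the fourth, with 2org-224 between them. The dye term of limma's fit over the 5 arrays passed for these 3 probes (adjusted p = 2.9e-18, 9.9e-14 and 1.7e-10, Benjamini-Hochberg over 171 probes) and not for 1org-141 (adjusted p = 0.84).

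Over all 171 probes the dye term passed for 9 probes toward Cy5 (5.26%) and for 14 toward Cy3 (8.19%). These p-values rest on a spread that limma pooled over all probes, which gave every probe the same SE of 0.32. With each probe's own spread, from 2 pairs and so with 1 degree of freedom, no probe passed (adjusted p = 0.68 for the 3 probes in limma without moderation), and 9 of 171 had an unadjusted p below the threshold. The own interval of 1org-200a, whose pairs differed by 0.15, was 1.82 to 3.77, and those of 1org-200b (-1.32 to 8.03) and 2org-200c (-1.70 to 6.43) included 0.

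**Figure D2:**
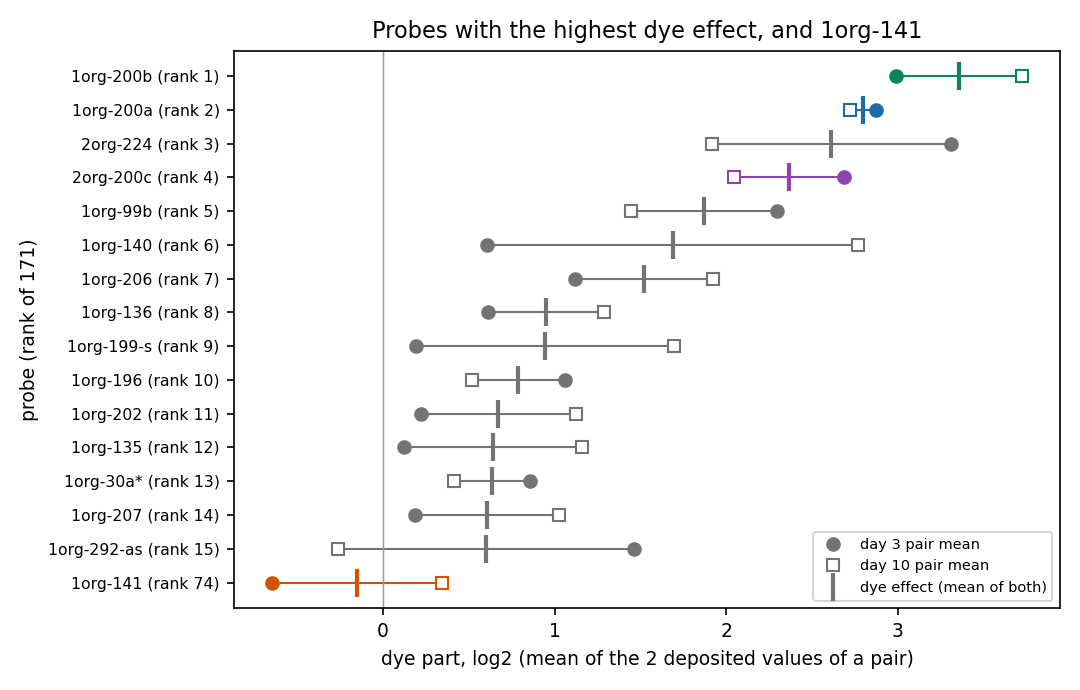
Dye part (log2, x axis) of the 15 probes with the highest dye effect and of 1org-141 (y axis, with the rank among 171); filled circles are day 3 pair means, open squares day 10 pair means and vertical ticks their mean. Probes 1org-200b, 1org-200a and 2org-200c rank 1, 2 and 4 and have both pair means above 2, and the 2 pair means of 1org-141 lie on either side of 0.

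Dye effects are set here beside seed and gene cluster as a description, and the part of either in the dye effect was not tested. Probes 1org-200a and 1org-141, alike in seed and in 20 of 22 bases of the named microRNAs, differed by 2.95 in dye effect. The deposited value of 1org-200a was the higher on all 5 arrays, by 2.32 to 3.80. Probes 2org-200c and 1org-141, from the same cluster, differed by 2.52, again with the same sign on all 5 arrays (1.67 to 3.64). Probes 1org-200b and 2org-200c, which share the other seed, differed by 0.99, and 1org-200a and 1org-200b, from the same cluster, by 0.56. In a comparison added after these values were seen, 37 other pairs of probes whose named microRNAs differ by at most 3 bases had a median difference in dye effect of 0.27 and a highest of 1.27. These pairs overlap: 25 of them join the same 9 probes numbered as let-7 and miR-98 (median 0.25), and the remaining 12 had a median of 0.37. The comparison covered the 111 probes with a matching mature sequence and took the closest arm of each pair. No probe of the 37 pairs was among the 9 whose dye term passed toward Cy5. The pairs therefore cannot show how far such a probe stands from a near-identical one. The highest differences were 1.27 for 1org-99a and 2org-100, and 1.07 for 2org-199a and 2org-199b, whose closest arms have the same sequence. Whether the probes for miR-200a and miR-141 differ more than the microRNAs do was not tested, since probe sequences were not used here.

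The base composition of the sequences is given as a description, and its part in the dye effect was not tested. MiR-200a and miR-141 are both 40.9% G and C, between miR-200b at 36.4% and miR-200c at 43.5%. MiR-141 holds 6 G, against 5 in miR-200a and miR-200b and 7 in miR-200c. The prefix of the ID, of unstated meaning, was 1org for 3 members and 2org for 2org-200c. The median dye effect was -0.22 for the 127 probes of the first prefix and also -0.22 for the 44 of the other.

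With the dye part taken out, the 4 probes became alike, and as deposited or after centring none differed 2-fold between activated and naive cells at day 3 or day 10. At day 3 the activation part (activated over naive) was 0.42 for 1org-200a, 0.68 for 1org-200b, 0.62 for 2org-200c and 0.70 for 1org-141. Their median of 0.65 stood beside 0.83 for all probes, and with the median of every array set to 0 (centring) the 4 values turned to -0.39, -0.13, -0.19 and -0.12. At day 10 the activation part was -0.72 for 1org-200a, -0.46 for 1org-200b, -0.70 for 2org-200c and -0.67 for 1org-141. Their median of -0.68 stood beside -0.56 for all probes, and after centring the values were -0.28, -0.01, -0.25 and -0.22. The signs at day 3 thus hold as deposited and turn with centring, while those at day 10 were below 0 in both settings. With the arrays brought to equal scale, the values computed as activation parts ran from 0.49 to 1.12 at day 3 and from -1.81 to -1.09 at day 10. Equal scale multiplied the arrays of a pair by different factors. The dye part then no longer cancelled, and these values hold some of it. In size alone 2 of the 4 were 2-fold higher at day 3, against 31.6% of all probes higher and 12.9% lower. All 4 were 2-fold lower at day 10, against 36.8% lower and 13.5% higher.

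A probe counted as changed where its activation part reached 1 in size (2-fold) and both arrays, once turned to activated over naive, lay on the same side of 0. At day 3 none of the 4 was higher, against 38.0% of all probes, and none was lower, against 12.9%. At day 10 none was higher, against 9.94%, and none lower, against 17.0%. The same sign could not occur for the 3 probes whose dye part exceeded their activation part, so the size was also read without that condition, an alternative added after the data were seen. None of the 4 reached 2-fold then at either time. Of all probes 39.8% were higher and 12.9% lower at day 3 by size alone, and 9.94% and 18.1% at day 10. After centring none of the 4 reached 2-fold either, against 17.0% of all probes higher and 20.5% lower at day 3, and 14.6% and 4.09% at day 10. In limma's fit over the 5 arrays the activation terms of the 4 probes did not pass at day 3 (adjusted p = 0.16 to 0.39) or at day 10 (adjusted p = 0.24 to 0.40). That fit called 39.2% of all probes higher and 12.9% lower at day 3, and 7.02% and 11.7% at day 10. Those p-values rest on how far the dye parts of the day 3 and day 10 pairs differed, pooled over all probes, which may be technical. They hold no replicate spread of activation at either time. The SE of each activation part in that fit was 0.45.

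The dye part outweighed the activation part by 4.32 to 6.89 times at day 3 and by 2.92 to 8.07 times at day 10 for the 3 probes with a dye effect. For 1org-141 it was 0.934 and 0.510 times the activation part. In all, the dye part was the larger at both times for 14 of 171 probes (8.19%). Read from 1 dye-swapped array as activated over naive, each of the 3 family probes with a dye effect is at least 1 in size. Its sign then follows the dye. With activated RNA in Cy5 alone, 1org-200b would read 3.67 at day 3 and 3.26 at day 10 for activated over naive, and with activated RNA in Cy3 alone -2.31 and -4.19.

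**Figure D3:**
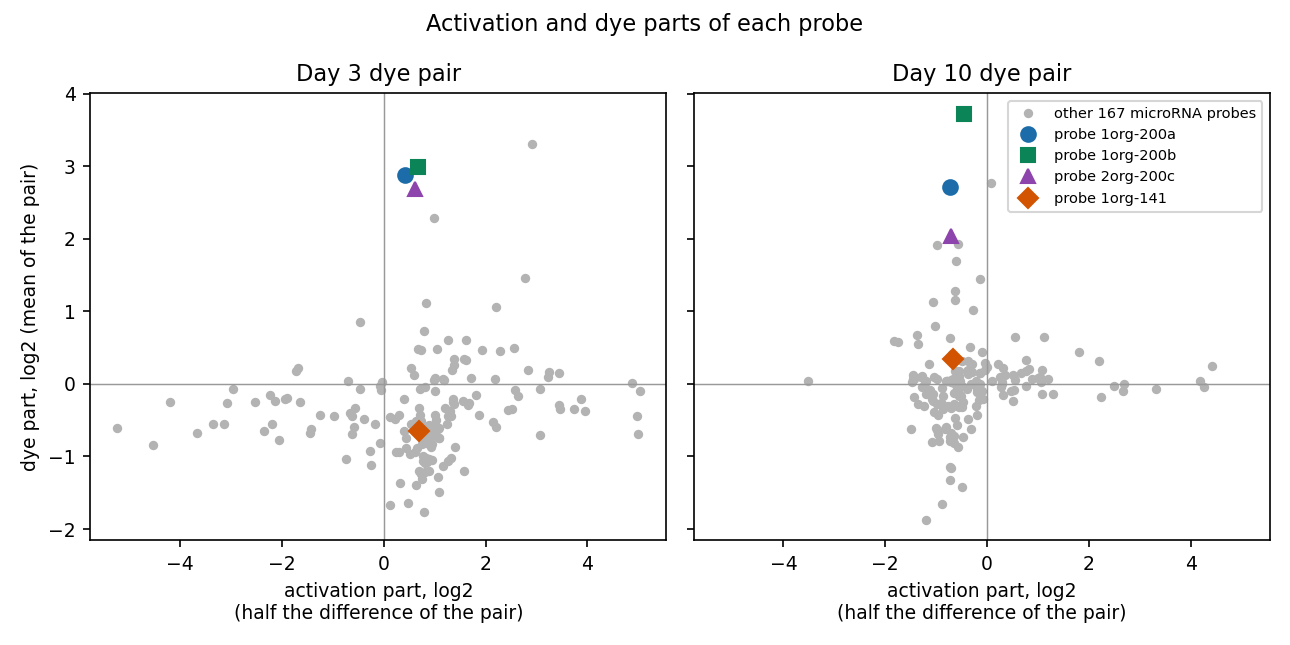
Activation part (x axis, log2, activated over naive) and dye part (y axis, log2) of 171 microRNA probes at day 3 (left) and day 10 (right); grey points are the other 167 probes. The 4 family probes lie at activation parts of 0.42 to 0.70 at day 3 and -0.72 to -0.46 at day 10, within the main cloud, while 3 of them stand at dye parts of 2.05 to 3.72.

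Between the times, the activation parts of all 4 probes were lower at day 10 than at day 3, by about as much as the median of all probes. Both times were set against naive RNA, which they may share. The activation part at day 10 less that at day 3 was -1.14 for 1org-200a, -1.14 for 1org-200b, -1.32 for 2org-200c and -1.36 for 1org-141, beside a median of -1.22 for all probes. After centring it was 0.12, 0.12, -0.07 and -0.10. At equal scale, where the dye part does not cancel, it ran from -2.81 to -1.58. By size alone all 4 were at least 2-fold lower and none higher, against 60.2% and 12.9% of all probes. After centring none was 2-fold lower or higher, against 17.0% and 29.2%. With the added condition that the 2 pairs do not overlap, only 1org-141 was called lower, against 41.5% of all probes, and none higher, against 12.9%. Its turned values were -0.33 and -1.01 at day 10 and 0.05 and 1.34 at day 3. The dye parts of the other 3 probes exceeded these differences in size, so their pairs could not lie apart. In limma's fit none of the 4 differences passed as deposited (adjusted p = 0.06 to 0.11), against 43.9% of all probes lower and 8.77% higher. None passed after centring (adjusted p = 0.91 to 0.96), against 7.60% lower and 21.6% higher. A permutation test of 2 against 2 arrays cannot go below an exact p of 0.33.

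Overnight, the same 3 probes were among the few with values above 0, and here no dye swap separates the parts. The array stood at 1.42 for 2org-200c, 1.09 for 1org-200b, 0.87 for 1org-200a and -2.22 for 1org-141, beside a median of -1.75, and 23 of 171 probes (13.5%) were above 0. As deposited, 2 of the 4 were at least 2-fold higher than in naive cells, against 4.09% of all probes, and 1 was lower, against 73.1%. The 3 higher values were in positions 5, 7 and 10 of 171, and that of 1org-141 in position 128. As in the dye effect, the 3 probes stood high and 1org-141 apart from them.

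Taking off the dye effect measured in the day 3 and day 10 pairs turned all 3 higher values. The overnight value less the dye effect was -0.94 for 2org-200c, -1.93 for 1org-200a, -2.07 for 1org-141 and -2.27 for 1org-200b, beside a median of -1.42 for all probes. None of the 4 was then at least 2-fold higher, against 2.92% of all probes, and 3 were lower, against 71.9%. The overnight group is 1 array with no spread of its own. Limma's fit lends it an SE of 0.71 from the day 3 and day 10 pairs, and so assumes that this array varied, and took the dyes, as they did, which was not tested. On that assumption the adjusted p was 0.028 for 1org-200a, 0.011 for 1org-200b, 0.019 for 1org-141 and 0.23 for 2org-200c, and 38.6% of all probes passed as lower and 1.75% as higher. After centring, the 4 values were 0.46 for 2org-200c, -0.52 for 1org-200a, -0.66 for 1org-141 and -0.86 for 1org-200b, and none reached 2-fold, against 15.8% of all probes higher and 7.60% lower. In limma none of these passed (adjusted p = 0.50 to 0.84), against 6.43% higher and 1.17% lower.

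The overnight values also depended on which pair gave the dye effect. Centred but with the dye kept in, the overnight values of 1org-200a, 1org-200b and 2org-200c were 2.62, 2.83 and 3.17, against centred dye effects of 3.14, 3.69 and 2.70. With the day 3 pair alone taken off, the deposited overnight values became -2.01 for 1org-200a, -1.90 for 1org-200b, -1.26 for 2org-200c and -1.57 for 1org-141. With the day 10 pair alone they became -1.85, -2.64, -0.62 and -2.56 in the same order.

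**Figure D4:**
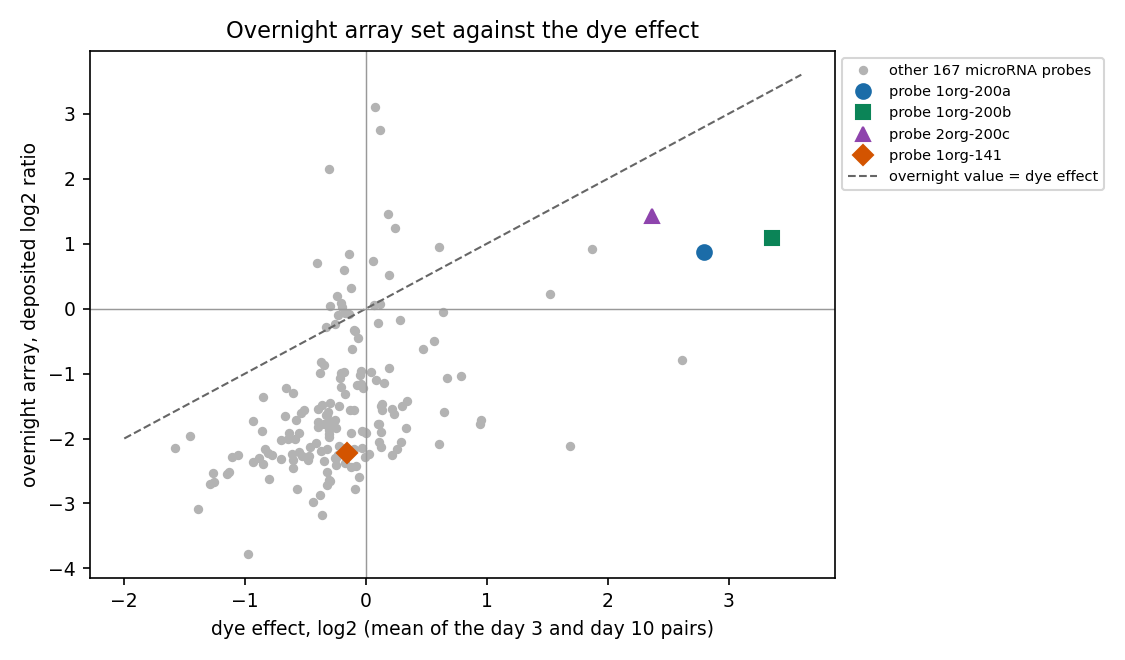
Deposited log2 ratio on the overnight array (y axis) against the dye effect from the day 3 and day 10 pairs (x axis, log2) for 171 microRNA probes; the dashed line marks equal values. The 3 family probes with dye effects of 2.37 to 3.36 lie above 0 overnight and below the dashed line, and 1org-141 lies at -2.22 among the other probes.

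Over the 3 times together, with each pair averaged after turning, none of the 4 probes differed from 0 in limma. The means were 0.19 for 1org-200a, 0.43 for 1org-200b, 0.45 for 2org-200c and -0.73 for 1org-141 (pooled SE 0.93, n = 3 times), with adjusted p = 0.85 to 0.93. Over all 171 probes limma called 0 (0%). At an unadjusted p below the threshold it had 3 probes higher (1.75%) and 8 lower (4.68%), none of them a member. When every array counted as a replicate beside a dye term 0 members passed, and the share of all probes in that setting is not given here. The overnight value enters these means with its dye part still in it, at 0.87 to 1.42 for the 3 probes and at -2.22 for 1org-141.

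Other probes, on a list taken here as epithelial, had dye effects near those of all probes, with a median of -0.22 for both. Whether the listed microRNAs are particular to epithelial cells was not tested. Of 9 probes that carry the numbers of miR-96, miR-182, miR-183, miR-192, miR-194, miR-203, miR-205 and miR-215, none passed the dye term. Of all probes 5.26% passed toward Cy5 and 8.19% toward Cy3. None of the 9 was above 0 on all 4 dye-swapped arrays, against 3.51% of all probes, and their dye effects ran from -0.57 to 0.29. Probe 1org-203, numbered as a microRNA of the skin epithelium, had a dye effect of 0.22, and probe 1org-205, numbered as another of stratified epithelia, of -0.03. At day 3, 3 of the 9 were at least 2-fold higher by the rule above and none lower, around a median of 0.79, against 38.0% and 12.9% of all probes. After centring 2 were higher and 1 lower, against 15.2% and 19.9% of all probes. The higher ones as deposited were 1org-183 (3.87), 1org-96 (3.43) and 1org-205 (1.21), and after centring 1org-205 was at 0.40. At day 10, 1 was higher, 1org-96 (2.23), and 4 were lower, around a median of -0.73, against 9.94% and 17.0% of all probes. After centring 1 was higher and 1 lower, against 14.6% and 4.09% of all probes. Overnight all 9 were at least 2-fold lower as deposited, around -2.06, as were 73.1% of all probes. Whether epithelial cells were present in any RNA was not tested.

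The probes most like the family over the 5 arrays were 2org-216 (r = 0.99), 1org-34a (r = 0.99) and 1org-291-s (r = 0.99), by the correlation of deposited values with the mean of the 4 members. Their own dye effects were -0.71, -0.35 and -0.38. The likeness is in the course over arrays and not in the dye effect: the array medians themselves gave r = 0.95 with the member mean, and 45 of the other 167 probes reached 0.9.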

How the data were processed

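Per the labels, total RNA of activated and naive mouse T cells was labelled with Cy5 and Cy3 on 5 arrays. The deposited table holds log ratios, read here as log2. Not given in the sources used here are the log base, the numerator, any background correction and the way of normalizing. The 171 probes with microRNA IDs were kept and 7 probes for other small RNAs left out. Values were used as deposited, and arrays held 1 group of activated cells each, placed by the labels. Parts were computed per pair, and limma 3.58.1 in R 4.3.3 fitted a dye term and a signed term per time to the 5 arrays (2-sided, Benjamini-Hochberg over 171 probes, threshold 0.05). Its residual has 1 degree of freedom. The fit was tested only on simulated data with 1 noise SD for every probe, which cannot test the pooling of the spread. Named were the 4 members, the 3 probes most like their mean, the epithelial list, and 1org-155 and 1org-150 for the direction. Members and lists were chosen with earlier results of these data known. Alternatives were centring, equal scale, leaving out arrays, a 1.5-fold limit, fits with and without moderation, and dye corrections of the overnight array.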

Additional observations from a re-analysis of the deposited data

Results flagged for a closer look

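Probe 1org-141 was noted because its turned values lay on opposite sides of 0 at the 2 times, below 0 on both arrays at day 10 and above 0 on both at day 3, with a difference of -1.36 (day 10 minus day 3). It did not pass limma's test of that difference (adjusted p = 0.06), and after centring it was -0.10 (adjusted p = 0.92). The 3 other family probes had differences of -1.14 to -1.32, but their dye parts kept their pairs from lying on 1 side of 0.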

How the results depend on the processing

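Directions depend on Cy5 as the numerator, and signal over background is unknown. The 3 dye effects passed in limma as deposited, after centring, at equal scale and with the median dye effect taken off, and 0 passed without moderation. With an array left out they rest on 1 pair and have no test. No member was called for activation at days 3 and 10 as deposited, centred or in limma. Probe 1org-141 was the 1 call at a 1.5-fold limit at day 3 (higher, as were 53.2% of all probes) and at day 10 (lower, as were 38.6%), and the 1 call at equal scale at day 10 (lower, as were 31%). The other 3 probes could not meet the same-sign rule, as their dye part exceeded their activation part. Their activation parts as deposited were 0.42 to 0.68 at day 3 and -0.72 to -0.46 at day 10. Those of 1org-141 were 0.70 and -0.67. By size alone all 4 were lower at equal scale at day 10, as were 36.8% of all probes, with some of the dye part left in. With an array left out, the value at that time rests on 1 array, and the dye part is then not cancelled. For 1org-200b it was then 3.67 or -2.31 at day 3 and 3.26 or -4.19 at day 10. Between days 10 and 3, 1org-141 was the 1 call (lower, as were 41.5% of all probes), under a condition that the pairs of the other 3 could not meet. After centring or in limma 0 were called. By size alone 4 were lower, as were 60.2% of all probes. By size alone after centring and in limma after centring 0 were called. Overnight 3 were called, 2 higher (as were 4.09% of all probes) and 1 lower (as were 73.1%). At equal scale only 1org-141 was called (lower, at -1.42), and the share of all probes in that setting is not given here. After centring and taking off the dye effect 0 were called. The called overnight values of 1org-200b and 2org-200c turned to -2.27 and -0.94 with the dye effect of both pairs taken off, to -1.90 and -1.26 with that of day 3, and to -2.64 and -0.62 with that of day 10, and 1org-200b to -0.86 with centring as well. Over all times no member was called in any setting run. No paired analysis was possible because the labels give no replicate numbers that pair samples between times.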
